A study of Mus musculus with 9 samples.

Results

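The T cell receptor turns contact with antigen into a signal through a defined set of proteins, and the transcripts of 39 of them were followed in cultured mouse T helper cells. They comprise the CD3 and zeta chains of the receptor, the tyrosine kinases next to it, the adaptors and lipid enzymes that relay the signal, the brakes on it, and the NFAT transcription factors at its end. They were picked by gene symbol, and all 39 were present among the 22017 symbols of the expression table. All 39 also passed the filter for testing, which 10538 genes passed in all.

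RNA sequencing covered 9 libraries in 3 groups of 3. Naive T cells from spleens of wild-type C57BL/6 mice were cultured under fate-inducing cytokines, stimulated again on day 7, and used for RNA on day 10. The Th17-derived Th1 cells (Th17-1 in the sample titles) grew in the Th17 condition first and were moved to the Th1 condition at the second stimulation. The Th1 cells stayed in the Th1 condition, which held IL-12 and anti-IL-4. The Th17 cells stayed in the Th17 condition, which held TGF-b, IL-6, IL-1b, anti-IFN-g, anti-IL-12 and anti-IL-4. Every group had its receptor engaged by antibody, first for 3 days with anti-CD3 at 5 and anti-CD28 at 1 ug/mL (the series text writes mg/mL), and again from day 7 with both at 0.05 ug/mL beside IL-2 at 100 U/mL. No unstimulated cells were analysed here.

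As background, antigen binding lets the kinase LCK phosphorylate the CD3 and zeta chains, which recruit the kinase ZAP-70. ZAP-70 phosphorylates the adaptors LAT and SLP-76, and the complex they build activates phospholipase C-gamma, whose products open the calcium and NFAT route and the diacylglycerol routes to RAS and NF-kappaB. Phosphatases, ubiquitin ligases and diacylglycerol kinases limit the response, and T helper cells rely on this balance when they divide and secrete cytokines.

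The unit is FPKM, fragments scaled by transcript length and library size, and read depth is unknown. A library summed to 382581 to 405985 FPKM over all genes, of which the 39 genes held 0.731% to 0.923%. The label of each fate was checked against its own genes. Ifng, the Th1 cytokine, stood at 717 to 990.3 FPKM in Th17-derived Th1, 1005 to 2013 in Th1 and 14.2 to 40.7 in Th17 libraries. Il17a, the Th17 cytokine, reached 0.160 FPKM at most in Th17-derived Th1 libraries, was at 0 in each Th1 library, and stood at 2.99 to 6.16 FPKM in Th17 libraries. Cd8a, a marker of CD8 T cells, was higher in replicate 3 of each group (104.1, 117 and 140.6 FPKM in Th17-derived Th1, Th1 and Th17) than in the other 6 libraries (15.3 to 54.9 FPKM). Cd4 stood at 91.1, 86.8 and 96.9 FPKM in Th17-derived Th1, 123.6, 81.1 and 57.1 in Th1, and 97.5, 88.1 and 52.9 in Th17 libraries. Replicate 3 was thus lowest for Cd4 in Th1 and Th17 but highest in Th17-derived Th1. The summed CD8 markers (Cd8a and Cd8b1, 2 of 2 detected) ranged over 25.5 to 152 FPKM in Th17-derived Th1, 19.8 to 170.5 in Th1 and 50.8 to 203 in Th17, and neither was at 0. B cell markers (7 listed) summed to 1.47 to 2.64 FPKM in Th17-derived Th1, 1.09 to 2.40 in Th1 and 3.10 to 4.09 in Th17, and NK cell markers (5 listed) to 2.20 to 7.98, 3.61 to 7.62 and 8.71 to 19.5 FPKM in the same order. Macrophage markers (6 listed) summed to 3.62 to 6.88, 3.78 to 11.95 and 1.45 to 2.92 FPKM and gamma-delta T cell markers (3 of 5 in the table) to 3.80 to 8.35, 0.568 to 1.90 and 5.00 to 6.01 FPKM. Mast cell and basophil markers (4 listed) summed to 3.03 to 5.18, 3.68 to 5.22 and 1.61 to 2.47 FPKM, and dendritic cell markers (6 listed) to 1.92 to 4.73, 4.16 to 9.03 and 2.10 to 4.06 FPKM, with Flt3, Siglech and Cd209a at 0. Few genes carried some of these sums. Of the macrophage list only Cd68 reached 1 FPKM in any library, and of the B cell list only Cd79a and Cd79b. Of the mast cell and basophil list only Kit did, apart from Mcpt8 in Th1 replicate 3 (1.03 FPKM). Sums of the lists other than CD8 varied with the groups, and their part in the results was not tested. Neutrophil and erythroid markers summed to at most 0.034 and 0.557 FPKM. In such bulk RNA, fewer cells of a type and less RNA per cell cannot be told apart. The labels do not say whether replicates came from separate mice or cultures, and the p-values therefore reflect library-to-library spread alone, part of which may be technical.

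Transcripts of the pathway were abundant. Averaged over the 9 libraries, the 39 genes ran from 5.94 FPKM for Ubash3b, a phosphatase of the UBASH3 family, to 325 FPKM for Lat, with a median of 63.0, and 36 of 39 lay above the median tested gene. The 11 genes above 100 FPKM included the kinases Lck (284), Fyn (114.5), Zap70 (107) and Csk (106), the chains Cd3g (217.5), Cd3e (181) and Cd3d (116), and Lat. The libraries of a group spread unevenly. Replicate 3 was the highest of the Th17-derived Th1 libraries for 27 of the 39 genes (69.2%, beside 36.8% of all tested genes), and replicate 2 was the lowest of the Th1 libraries for 24 (61.5%, beside 38.0%). Whether the Cd8a level of replicate 3 plays a part in this was not tested.

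Groups were compared as log2(FPKM + 1) with limma over all 10538 genes, and a gene was called when its two-sided p, adjusted by the Benjamini-Hochberg method over all of them, was below 0.05. The scale of the values matters here. As deposited, the median tested gene differed by 0.05 in Th17-derived Th1 against Th1, by -0.12 in Th17-derived Th1 against Th17 and by -0.17 in Th1 against Th17, while median-ratio scaling brought these to 0.003, -0.015 and -0.016. Of all called genes, 40.4% were higher in Th17-derived Th1 against Th17 as deposited and 63.0% after median-ratio scaling, and 32.7% against 53.8% in Th1 against Th17. Differences are given as deposited, and a call that this scaling ended is named. The limits given gene by gene are mostly libraries left out, and other ways of processing ended some of these calls too.

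Th17-derived Th1 cells and Th1 cells, both harvested in the Th1 condition, differed in few of the 39 genes. The adaptor Sit1, the adhesion receptor Cd2, the kinase Txk and the ubiquitin ligase Cbl were higher in Th17-derived Th1, and the adaptor Lax1, Themis and the phosphatase family member Ubash3a were lower. Sit1 averaged 16.4 ± 0.671 FPKM in Th17-derived Th1 and 9.32 ± 1.89 FPKM in Th1 (SD, n = 3 each). With limma, 4 of 39 were higher (10.3%), beside 5.67% of all tested genes, and 3 were lower (7.69%), beside 4.81%. The median difference was -0.08 over the 39 genes and 0.05 over all tested genes. None of the 7 calls held under all 21 other ways of processing. Without Th17-derived Th1 replicate 1 the counts were 0 higher and 0 lower (limma, 6 and 6 at an unadjusted p below 0.05), and Sit1 and Cd2 lost the call only there among single omissions, with adjusted p-values of 0.0510 and 0.0564 (limma, Benjamini-Hochberg). The count lower also went to 0 without Th17-derived Th1 replicate 2 or Th1 replicate 1 or 3 (4, 5 and 5 at an unadjusted p below 0.05) and to 1 without Th17 replicate 1 or 2, whereas without Th1 replicate 2 it was 8. The count higher was 2 without Th17-derived Th1 replicate 2 or 3, Th1 replicate 1, or Th17 replicate 1 or 2. With replicate 3 of every group left out, the counts were 0 higher (7 at an unadjusted p below 0.05) and 2 lower. The counts over all tested genes moved too. As deposited 597 were higher and 507 lower, beside 237 and 151 without Th17-derived Th1 replicate 1. They were 1067 and 794 without Th1 replicate 2, and 290 and 306 without replicate 3 of every group. Txk and Cbl were not called after median-ratio scaling.

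Against Th17 cells, whose condition they had shared until day 7, Th17-derived Th1 cells had lower Cd3e, Cd3g, Grap2, Lax1, Sit1, Ptpn6 and Plcg1, which span the receptor, its adaptors, a phosphatase and the phospholipase. Cd2 and Nfatc2 were higher. Lax1 averaged 18.5 ± 7.50 FPKM in Th17-derived Th1 and 46.7 ± 4.43 FPKM in Th17 (SD, n = 3 each). With limma, 2 of 39 were higher (5.13%), beside 6.43% of all tested genes, and 7 were lower (17.9%), beside 9.49%. The median difference was -0.08 over the 39 genes and -0.12 over all tested genes. Cd3e, Sit1 and Plcg1 were called under each of 21 other ways of processing, which included each library left out in turn. Lax1 lost its call without Th17 replicate 2 alone (adjusted p = 0.0511, limma). The count higher was 0 without Th17-derived Th1 replicate 1 or 2 or Th17 replicate 1 or 2 (limma, 4, 6, 5 and 4 at an unadjusted p below 0.05), 1 without Th17-derived Th1 replicate 3 or Th17 replicate 3, and 4 without Th1 replicate 2, and the count lower was 4 without Th17 replicate 2. With replicate 3 of every group left out, 1 was higher and 6 were lower. Over all tested genes, 678 were higher and 1000 lower as deposited. Those counts were 422 and 417 without Th17-derived Th1 replicate 1, and 379 and 302 without Th17 replicate 2. They were 889 and 1453 without Th1 replicate 2, and 514 and 522 without replicate 3 of every group. After median-ratio scaling Cd3g and Grap2 were not called and 6 genes were higher (15.4%), with Cd247, Lcp2, Ptpn2 and Cd6 called in addition (adjusted p = 0.0399, 0.0471, 0.0355 and 0.0265, limma). That scaling also raised the count higher among all 10538 tested genes, from 678 to 853.

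Between Th1 and Th17 cells 24 of the 39 genes were called, 61.5% beside 42.9% of all tested genes. Higher in Th1 were Cblb, Ptpn22, Themis, Ubash3a, Nfatc2, Lcp2, Fyn, Bcl10, Ptpn2, Nfatc1, Cd247 and Zap70. Lower in Th1 were Sit1, Dgka, Txk, Plcg1, Grap2, Ptpn6, Cbl, Cd3e, Tec, Vav1, Csk and Pag1. Mean Sit1 was 9.32 ± 1.89 FPKM for Th1 and 33.8 ± 3.81 FPKM for Th17, and mean Cblb 29.5 ± 7.88 FPKM for Th1 and 13.4 ± 1.82 FPKM for Th17 (SD, n = 3 each). With limma, 12 of 39 were higher (30.8%), beside 14.0% of all tested genes, and 12 were lower (30.8%), beside 28.9%, so that the share lower was near that of all genes. The median difference was -0.02 over the 39 genes and -0.17 over all tested genes. Of these 24 calls, 14 held under all 21 other ways of processing. The count higher was 6 without Th1 replicate 3 and 7 without Th1 replicate 1 or Th17 replicate 1. With replicate 3 of every group left out, 6 were higher and 10 lower. Over all tested genes, 1478 were higher and 3048 lower as deposited. Those counts were 1091 and 2048 without Th1 replicate 3, and 1057 and 1982 without Th17 replicate 1. They were 1151 and 1916 without replicate 3 of every group. Cd3e, Tec, Csk and Pag1 were not called after median-ratio scaling. Over the 3 comparisons, which share libraries, 12 genes were called in none, 15 in 1, 11 in 2 and Sit1 alone in all 3.

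**Figure D1:**
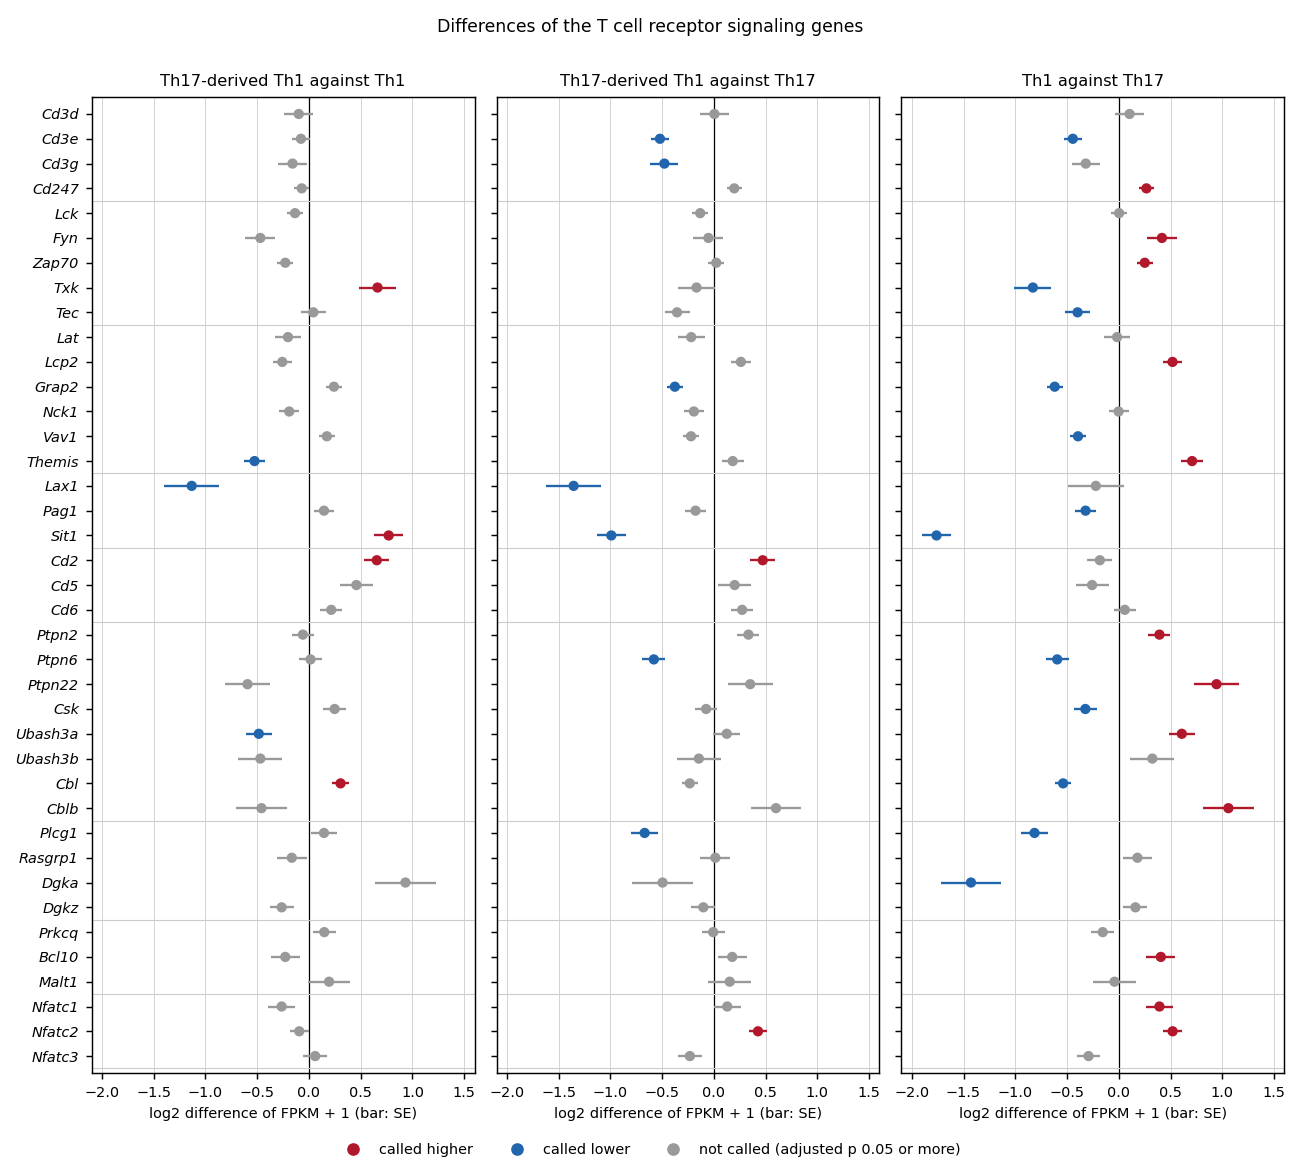
Log2 difference of FPKM + 1 for each of the 39 genes, ordered by role, in the 3 comparisons (points, with bars of 1 SE from limma). Red points are called higher and blue points lower at an adjusted p below 0.05, 4 and 3 in Th17-derived Th1 against Th1, 2 and 7 in Th17-derived Th1 against Th17, and 12 and 12 in Th1 against Th17.

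The receptor's own chains were not all called together. Cd3e, Cd3g and Cd3d encode the chains that pair with the antigen-binding subunits, and Cd247 encodes the zeta chain that carries most of the phosphorylation motifs. The first 3 lie side by side on chromosome 9 (GRCm38): Cd3g at chr9:44969572-44980431 on the minus strand, Cd3d at chr9:44981786-44987339 on the plus strand and Cd3e at chr9:44998740-45009627 on the minus strand. The starts of Cd3d and Cd3g are 1355 bases apart, and those of Cd3d and Cd3e 27841 bases. Their promoters are printed because these neighbouring genes were not called together, and that of Sit1 because it was the gene called in all 3 comparisons. Each runs 5′ to 3′ along the gene's strand, from 250 bases before the start to 50 after it (RefSeq, GRCm38.p6), at chr9:45009562-45009861 (minus) for Cd3e, chr9:44981536-44981835 (plus) for Cd3d, chr9:44980382-44980681 (minus) for Cd3g and chr4:43483660-43483959 (minus) for Sit1. Capitals mark matches on either strand to 5 short motifs of factor families found in T cells: ETS (AGGAAG), RUNX (TGTGGT), TCF-1/LEF-1 (CTTTGA), T-box (GGTGTG) and STAT (TTCNNNGAA).
Cd3e: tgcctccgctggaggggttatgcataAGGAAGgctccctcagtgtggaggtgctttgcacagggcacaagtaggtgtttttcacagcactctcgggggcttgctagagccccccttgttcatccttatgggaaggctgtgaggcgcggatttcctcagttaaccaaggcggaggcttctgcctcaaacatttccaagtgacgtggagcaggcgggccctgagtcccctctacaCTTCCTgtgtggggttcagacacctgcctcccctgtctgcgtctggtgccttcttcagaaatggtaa
Cd3d: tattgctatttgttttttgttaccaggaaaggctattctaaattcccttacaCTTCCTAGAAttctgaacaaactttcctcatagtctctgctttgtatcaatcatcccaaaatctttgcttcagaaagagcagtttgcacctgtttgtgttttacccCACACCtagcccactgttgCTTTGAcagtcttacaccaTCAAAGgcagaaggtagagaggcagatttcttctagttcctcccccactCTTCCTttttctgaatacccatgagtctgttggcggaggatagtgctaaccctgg
Cd3g: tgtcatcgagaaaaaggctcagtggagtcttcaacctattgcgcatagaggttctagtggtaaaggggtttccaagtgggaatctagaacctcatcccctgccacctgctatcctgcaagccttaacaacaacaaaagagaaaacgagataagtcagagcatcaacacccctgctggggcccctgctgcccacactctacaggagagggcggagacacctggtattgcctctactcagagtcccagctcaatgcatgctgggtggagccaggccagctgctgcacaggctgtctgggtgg
Sit1: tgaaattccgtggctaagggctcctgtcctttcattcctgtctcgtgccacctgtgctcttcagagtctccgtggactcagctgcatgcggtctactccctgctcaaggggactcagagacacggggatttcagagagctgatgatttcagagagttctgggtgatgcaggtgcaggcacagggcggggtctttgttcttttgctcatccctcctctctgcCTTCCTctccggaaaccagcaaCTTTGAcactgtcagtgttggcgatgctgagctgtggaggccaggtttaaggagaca
The Cd3e window held 2 ETS matches. The Cd3d window held 2 ETS, 2 TCF-1/LEF-1, 1 T-box and 1 STAT match, of which the STAT match overlaps an ETS match. The Cd3g window held none of the 5, and that of Sit1 held 1 ETS and 1 TCF-1/LEF-1 match. Such letters are common. Among 32851 promoter windows of this length, 35.4% held the ETS letters, 16.8% RUNX, 16.0% TCF-1/LEF-1, 19.0% T-box and 8.30% STAT. Of 49 windows that belong to 33 of the 39 genes, 34 (69.4%), 7 (14.3%), 10 (20.4%), 15 (30.6%) and 4 (8.16%) did. A match is a string of letters and says nothing of binding.

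Cd3e stood at 149.5, 151 and 165 FPKM in Th17-derived Th1, 173, 156 and 162 in Th1, and 232, 236 and 203 in Th17 libraries. All 3 Th17 libraries lay above the other 6, and the Th17-derived Th1 and Th1 libraries overlapped. The difference was -0.52 ± 0.09 (SE) in Th17-derived Th1 against Th17 (adjusted p = 0.00501, limma with Benjamini-Hochberg) and -0.44 ± 0.09 in Th1 against Th17 (adjusted p = 0.00437; 0.0560 after median-ratio scaling). Cd3g moved by -0.48 against Th17 in Th17-derived Th1 (adjusted p = 0.0444, limma), a call that ended on leaving out any library other than Th17-derived Th1 replicate 3 and Th1 replicate 2 (0.0528 to 0.133), and its difference of -0.32 in Th1 against Th17 was not called. Cd3d, the neighbour between them, differed by 0.005 in Th17-derived Th1 against Th17 (95% interval -0.31 to 0.32) and by 0.10 in Th1 against Th17 (-0.21 to 0.42). Cd247 was higher in Th1 than in Th17 by 0.27 (adjusted p = 0.0192, limma), a call lost without Th1 replicate 3 or Th17 replicate 2 (0.0565 to 0.0715). Quantile normalization and the omission of replicate 3 of every group ended the Cd247 call too, with adjusted p up to 0.128 (limma). In Th17-derived Th1 against Th1 the 4 chains differed by -0.16 to -0.07.

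A ratio of chains within a library does not depend on library scaling. The ratios were chosen after the values were seen and carry no test. Cd3e over Cd3d was 1.41, 1.5 and 1.22 in Th17-derived Th1, 1.38, 1.51 and 1.18 in Th1, and 2.08, 1.92 and 1.93 in Th17. Cd3g over Cd3d was 1.67, 1.62 and 1.61 in Th17-derived Th1, 1.78, 1.66 and 1.68 in Th1, and 2.32, 2.12 and 2.44 in Th17. For both ratios the Th17 libraries lay above all other libraries. Cd247 over Cd3d averaged 0.817 ± 0.0964 in Th17-derived Th1, 0.801 ± 0.102 in Th1 and 0.711 ± 0.0469 in Th17 (SD, n = 3 each), with overlapping ranges.

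**Figure D2:**
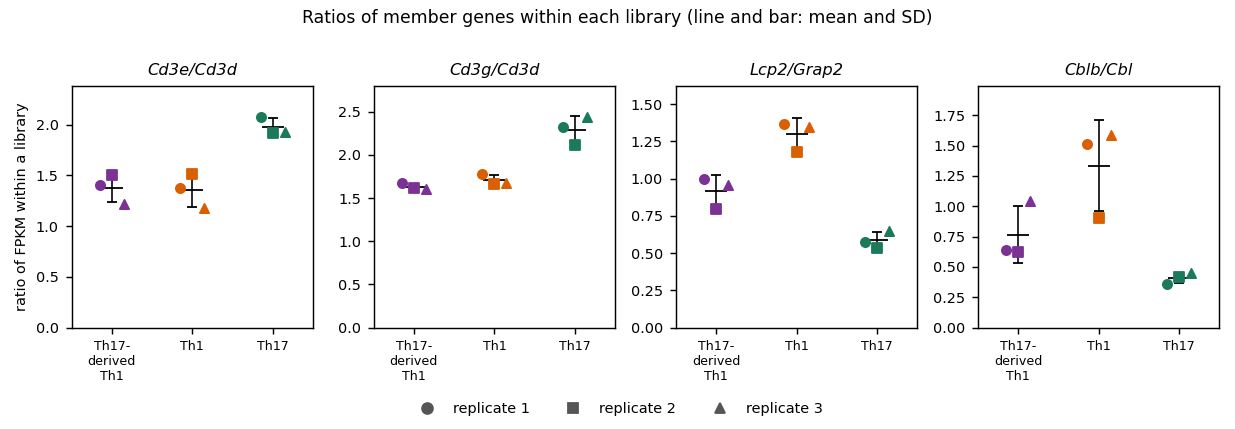
Ratio of FPKM between paired genes within each library (y axis, no unit) for Th17-derived Th1, Th1 and Th17, with replicates as symbols, and the mean and SD of 3 libraries as line and bar. Th17 libraries sit highest for Cd3e/Cd3d (1.92 to 2.08) and Cd3g/Cd3d (2.12 to 2.44) and lowest for Lcp2/Grap2 (0.537 to 0.650) and Cblb/Cbl (0.362 to 0.449).

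Of the proximal kinases, LCK and FYN start phosphorylation, ZAP-70 spreads it to adaptors, and TXK and TEC belong to the family that activates phospholipase C-gamma. Lck stood at 255, 256 and 289.8 FPKM in Th17-derived Th1, 295, 285 and 298 in Th1, and 284, 304 and 288 in Th17 libraries. The 3 ranges overlapped, and no comparison called it. The 95% interval of the difference was -0.31 to 0.04 in Th17-derived Th1 against Th1, -0.31 to 0.04 in Th17-derived Th1 against Th17 and -0.17 to 0.18 in Th1 against Th17; changes up to those bounds are not set apart from 0 by these libraries. The last difference was 0.003, its sign varied between ways of processing, and among them quantile normalization alone called it, at -0.26 (adjusted p = 0.0148, limma). Zap70 was at 100.3, 98.2 and 105 FPKM in Th17-derived Th1, 122, 117 and 117 in Th1, and 93.4, 107 and 99.2 in Th17 libraries. The Th1 libraries lay above both other groups, and only Th1 against Th17 was called, at 0.25 ± 0.08 (adjusted p = 0.0281, limma), which ended without Th1 replicate 1 or 3 or Th17 replicate 1 or 3 (0.0552 to 0.110). Scaling to equal sums and quantile normalization were among the other ways of processing that ended this call, and adjusted p reached 0.144 (limma).

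Txk followed another order. It was at 21.4, 25.05 and 26.9 FPKM in Th17-derived Th1, 15.7, 11.4 and 18.8 in Th1, and 29.6, 29.9 and 23.4 in Th17 libraries. Every Th1 library lay below the other 6, while Th17-derived Th1 and Th17 overlapped. The difference was 0.66 ± 0.18 in Th17-derived Th1 against Th1 (adjusted p = 0.0464, limma with Benjamini-Hochberg; 0.0527 to 0.155 and not called when any library other than Th1 replicate 3 and Th17 replicate 3 was left out) and -0.83 ± 0.18 in Th1 against Th17 (adjusted p = 0.00602), which held throughout. Tec, at 5.28 to 9.26 FPKM, was lower in Th1 than in Th17 by 0.40 on the log2 scale (called, adjusted p = 0.0269, limma), and lost the call without Th1 replicate 1 or Th17 replicate 1 or 3 (0.0731 to 0.0877). Fyn was higher in Th1 than in Th17 by 0.42 (adjusted p = 0.0423, limma), and lost the call when any library other than Th17-derived Th1 replicate 3 and Th1 replicate 2 was left out (0.0591 to 0.139). Equal sums and quantile normalization also ended the Fyn call, and adjusted p reached 0.253 (limma).

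Among the adaptors, LAT is the membrane scaffold of the signal, GADS (encoded by Grap2) links it to SLP-76 (encoded by Lcp2), NCK1 and VAV1 lead to the cytoskeleton, and THEMIS tunes signal strength in thymocytes and T cells. Lat stood at 294, 319 and 268 FPKM in Th17-derived Th1, 303, 410.1 and 308 in Th1, and 340.3, 368 and 317 in Th17 libraries. Its ranges overlapped, Th1 replicate 2 was the highest of all 9, and the 95% interval was -0.49 to 0.09 in Th17-derived Th1 against Th1, -0.51 to 0.07 in Th17-derived Th1 against Th17 and -0.31 to 0.27 in Th1 against Th17. Grap2 was at 103, 111 and 105 FPKM in Th17-derived Th1, 88.4, 90.1 and 91.7 in Th1, and 143, 144 and 129 in Th17 libraries. The 3 groups did not overlap, with Th17 highest and Th1 lowest. Grap2 fell by 0.62 in Th1 against Th17 (adjusted p = 0.000454, limma) and by 0.38 in Th17-derived Th1 against Th17 (adjusted p = 0.0111, limma), the second of which ended without Th17-derived Th1 replicate 1 or Th17 replicate 1 or 2 (0.0546 to 0.0607).

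Its partner Lcp2 ran the other way. It averaged 97.7 ± 7.63 FPKM in Th17-derived Th1, 117 ± 9.35 in Th1 and 81.2 ± 3.42 in Th17 (SD, n = 3 each), and rose by 0.52 in Th1 against Th17 (adjusted p = 0.00264, limma). The ratio of Lcp2 to Grap2 within a library was 0.998, 0.799 and 0.958 in Th17-derived Th1, 1.37, 1.18 and 1.35 in Th1, and 0.573, 0.537 and 0.650 in Th17. The 3 groups did not overlap, with Th17-derived Th1 between the others. Themis stood at 46.3, 40.4 and 46.5 FPKM in Th17-derived Th1, 69.9, 56.7 and 66.9 in Th1, and 41.9, 37.6 and 37.5 in Th17 libraries. Its Th1 libraries lay above all others, and the Th17-derived Th1 and Th17 ranges overlapped. Themis fell by 0.53 in Th17-derived Th1 against Th1 (adjusted p = 0.0160, limma; 0.0523 to 0.0794 without Th17-derived Th1 replicate 1 or 2 or Th1 replicate 1 or 3) and rose by 0.71 in Th1 against Th17 (adjusted p = 0.00111). Vav1 fell by 0.39 in Th1 against Th17 (adjusted p = 0.00332, limma), and the interval for Nck1 in that comparison was -0.22 to 0.22.

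The transmembrane adaptors LAX1, SIT1 and PAG1 act mostly as brakes: LAX1 and SIT1 dampen receptor signals, and PAG1 docks the inhibitory kinase CSK at the membrane. Sit1 stood at 17.2, 15.9 and 16.2 FPKM in Th17-derived Th1, 8.79, 11.4 and 7.75 in Th1, and 34.7, 37.0 and 29.6 in Th17 libraries. The 3 groups did not overlap, and the Th17-derived Th1 libraries lay between the others and close to each other. The difference was 0.77 ± 0.14 in Th17-derived Th1 against Th1 (1.71-fold, adjusted p = 0.0108, limma; 0.0510 without Th17-derived Th1 replicate 1), -0.99 ± 0.14 in Th17-derived Th1 against Th17 (0.503-fold, adjusted p = 0.00210) and -1.76 ± 0.14 in Th1 against Th17 (0.295-fold, adjusted p = 5.13e-05). Relative to the median tested gene these were 0.72, -0.87 and -1.59.

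Lax1 had another order. It was at 13.0, 15.4 and 27.0 FPKM in Th17-derived Th1, 39.8, 29.8 and 53.0 in Th1, and 47.9, 50.4 and 41.8 in Th17 libraries. All Th17-derived Th1 libraries lay below all others, replicate 3 nearest to them, and Th1 and Th17 overlapped. Lax1 fell by 1.13 in Th17-derived Th1 against Th1 (0.456-fold, SE 0.27, adjusted p = 0.0308, limma) and by 1.36 in Th17-derived Th1 against Th17 (0.391-fold, SE 0.27, adjusted p = 0.0103, limma). The first call ended without replicate 1 of any group, Th17-derived Th1 replicate 2, Th1 replicate 3 or Th17 replicate 2 (0.0506 to 0.123), and the second without Th17 replicate 2 (0.0511). Pag1 fell by 0.32 in Th1 against Th17 (adjusted p = 0.0286, limma), a call lost without Th1 replicate 1 or 3 or any Th17 library (0.0671 to 0.0960).

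Of the surface receptors, CD2 binds ligands on partner cells and strengthens the contact, and CD5 and CD6 are scavenger-family receptors, of which CD5 dampens the signal. Cd2 stood at 208, 186 and 183 FPKM in Th17-derived Th1, 138, 102 and 128 in Th1, and 149, 140.1 and 127 in Th17 libraries. Every Th17-derived Th1 library lay above the other 6, and Th1 and Th17 overlapped. Cd2 rose by 0.66 in Th17-derived Th1 against Th1 (1.58-fold, SE 0.12, adjusted p = 0.0117, limma; 0.0564 without Th17-derived Th1 replicate 1) and by 0.47 in Th17-derived Th1 against Th17 (1.39-fold, SE 0.12, adjusted p = 0.0298, limma). The omission of any of the 6 libraries in the second comparison ended its call (0.0548 to 0.108). Cd5 averaged 72.5 ± 5.00 FPKM in Th17-derived Th1, 53.2 ± 10.6 in Th1 and 63.4 ± 9.57 in Th17, and Cd6 68.5 ± 0.489 in Th17-derived Th1, 59.2 ± 7.77 in Th1 and 56.5 ± 3.14 in Th17 (SD, n = 3 each), with no comparison of either called.

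**Figure D3:**
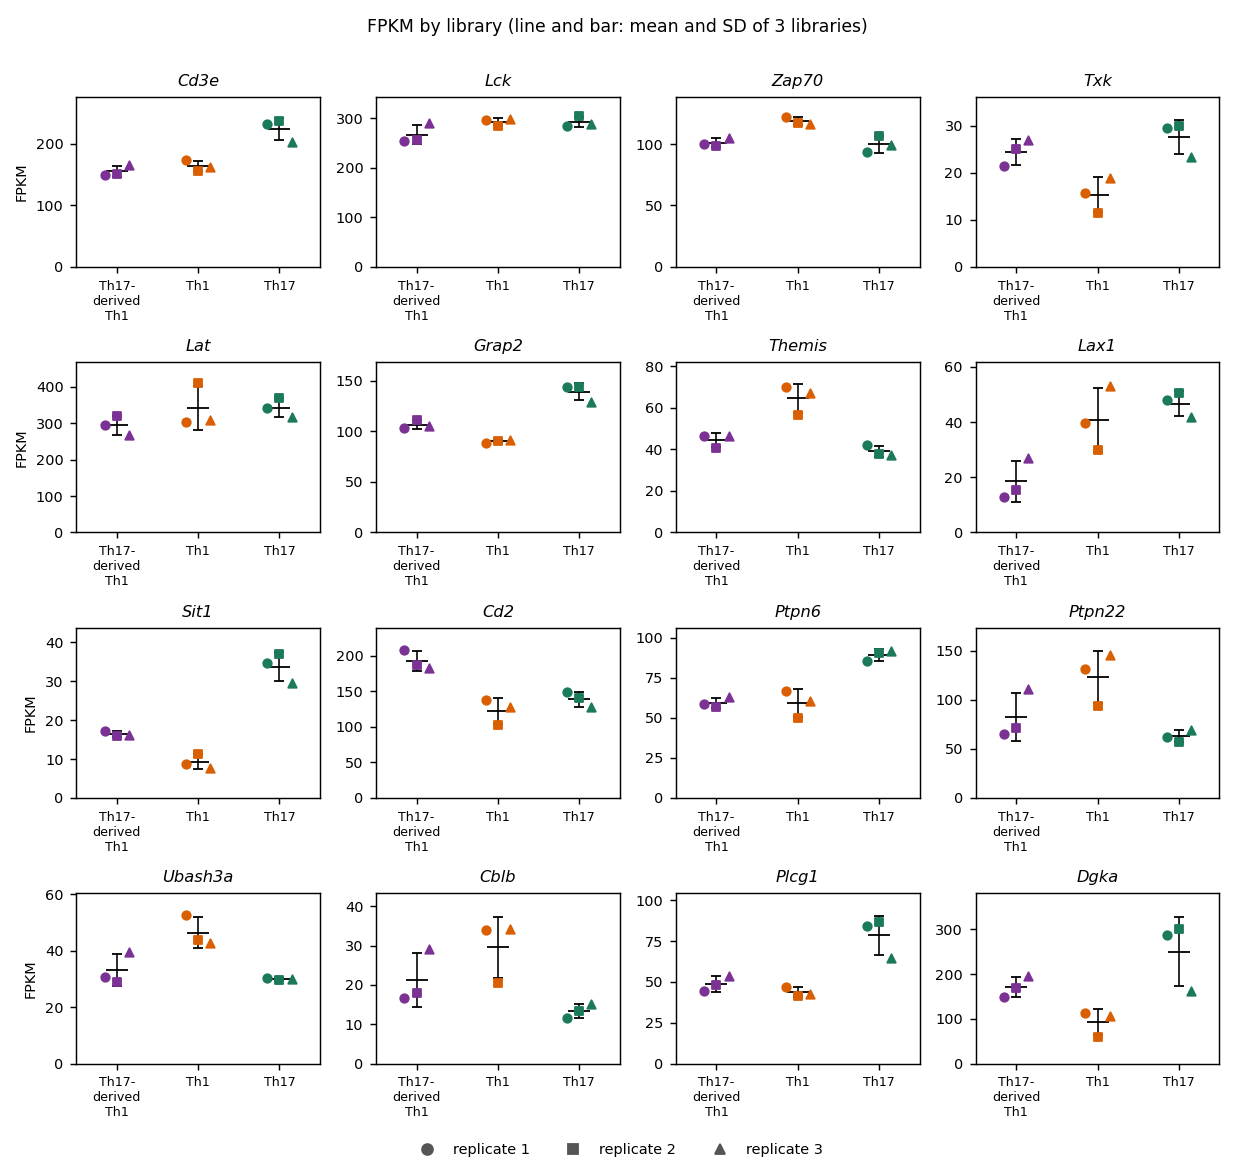
FPKM (y axes from 0) of 16 genes in each library of Th17-derived Th1, Th1 and Th17, with replicates as symbols, and the mean and SD of 3 libraries as line and bar. Sit1 falls into 3 separate levels, Lax1 is lowest and Cd2 highest in Th17-derived Th1, and Lck and Lat overlap between groups.

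The negative regulators split by gene and not as a block. The phosphatases SHP-1 (Ptpn6), PTPN22 and PTPN2 and the kinase CSK act on the proximal kinases, UBASH3A and UBASH3B act on phosphorylated receptor complexes and kinases, and CBL and CBL-B are ubiquitin ligases. In Th1 against Th17, 4 of the 8 rose (Cblb, Ptpn22, Ubash3a and Ptpn2) and 3 fell (Ptpn6, Cbl and Csk), beside 14.0% and 28.9% of all tested genes. Cblb stood at 16.7, 18.0 and 29.2 FPKM in Th17-derived Th1, 33.9, 20.4 and 34.3 in Th1, and 11.5, 13.4 and 15.2 in Th17 libraries. The Th17 libraries were the lowest, and Th17-derived Th1 replicate 3 fell within the Th1 range. Cblb rose by 1.06 ± 0.25 in Th1 against Th17 (2.08-fold, adjusted p = 0.00861, limma), and its difference of 0.60 in Th17-derived Th1 against Th17 was not called (adjusted p = 0.126, limma).

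Ptpn22 stood at 65.2, 71.3 and 111 FPKM in Th17-derived Th1, 131, 93.8 and 145 in Th1, and 62.4, 57.0 and 69.2 in Th17 libraries. Th1 lay above Th17 throughout, and Th17-derived Th1 overlapped both. It rose by 0.94 ± 0.22 in Th1 against Th17 (1.92-fold, adjusted p = 0.00809, limma). Replicate 3, with the highest Cd8a of its group, was the highest Th17-derived Th1 library for 27 of the 39 genes, Cblb, Ptpn22 and Lax1 among them. Cblb and Ptpn22 were also highest in replicate 3 of Th1 and of Th17. Lax1 was highest in replicate 3 of Th1 but lowest in replicate 3 of Th17 (41.8 FPKM, beside 47.9 and 50.4). With the CD8 markers as a covariate, Cblb and Ptpn22 were called in Th1 against Th17 and Lax1 in both comparisons of Th17-derived Th1. The covariate ended the calls of Ubash3a in Th17-derived Th1 against Th1, Cd3g in Th17-derived Th1 against Th17, and Fyn and Pag1 in Th1 against Th17, with adjusted p-values of 0.0501, 0.0563, 0.0521 and 0.0550 (limma, Benjamini-Hochberg). It added calls of Ptpn22 and Cd5 in Th17-derived Th1 against Th1, Cblb in Th17-derived Th1 against Th17, and Cd5 in Th1 against Th17.

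Ubash3a was at 30.6, 28.9 and 39.5 FPKM in Th17-derived Th1, 52.6, 43.8 and 42.6 in Th1, and 30.3, 29.5 and 29.9 in Th17 libraries. Th1 was highest in every library, with Th17-derived Th1 and Th17 overlapping. It fell by 0.49 in Th17-derived Th1 against Th1 (adjusted p = 0.0440, limma; 0.0571 to 0.175 and not called when any library other than Th17-derived Th1 replicate 3 and Th1 replicate 2 was left out) and rose by 0.61 in Th1 against Th17 (adjusted p = 0.00562). Ptpn6 stood at 58.6, 56.7 and 62.7 FPKM in Th17-derived Th1, 66.8, 49.9 and 60.5 in Th1, and 85.2, 90.5 and 91.8 in Th17 libraries. Both groups harvested in the Th1 condition lay below all Th17 libraries. Ptpn6 fell by 0.58 in Th17-derived Th1 against Th17 (adjusted p = 0.00850, limma; 0.0612 with replicate 3 of every group left out) and by 0.60 in Th1 against Th17 (adjusted p = 0.00305, limma).

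Cbl, the relative of Cblb, moved against it. It averaged 27.7 ± 1.59 FPKM in Th17-derived Th1, 22.2 ± 0.528 in Th1 and 32.7 ± 0.989 in Th17 (SD, n = 3 each), with no overlap between the groups, and fell by 0.54 in Th1 against Th17 (adjusted p = 0.00104, limma). In Th17-derived Th1 against Th1 it rose by 0.31 (adjusted p = 0.0401, limma; 0.0697 to 0.172 and not called when any library other than Th1 replicate 2 and Th17 replicate 3 was left out). The ratio of Cblb to Cbl within a library was 0.642, 0.619 and 1.04 in Th17-derived Th1, 1.51, 0.905 and 1.59 in Th1, and 0.362, 0.414 and 0.449 in Th17. Th17 was lowest, and Th17-derived Th1 replicate 3 exceeded Th1 replicate 2. Csk fell by 0.32 in Th1 against Th17 (adjusted p = 0.0377, limma) and lost that call when any library other than Th17-derived Th1 replicate 3 and Th1 replicate 2 was left out (0.0531 to 0.138). Ptpn2 rose by 0.39 there (adjusted p = 0.0163, limma) and lost the call without Th1 replicate 1 or 3 or Th17 replicate 1 (0.0501 to 0.0588).

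In the diacylglycerol branch, phospholipase C-gamma-1 (Plcg1) makes diacylglycerol, RASGRP1 passes it on to RAS, and the kinases DGK-alpha and DGK-zeta remove it. Plcg1 stood at 44.4, 47.8 and 53.8 FPKM in Th17-derived Th1, 47.1, 41.6 and 42.8 in Th1, and 84.2, 86.6 and 64.4 in Th17 libraries. All Th17 libraries lay above the rest. Plcg1 fell by 0.67 in Th17-derived Th1 against Th17 (0.629-fold, SE 0.13, adjusted p = 0.00901, limma) and by 0.81 in Th1 against Th17 (0.569-fold, SE 0.13, adjusted p = 0.00145, limma). Dgka was at 149.6, 169.6 and 195 FPKM in Th17-derived Th1, 112, 58.6 and 106 in Th1, and 287, 301 and 161 in Th17 libraries. Th1 lay below both other groups, and Th17 replicate 3 fell within the Th17-derived Th1 range. Dgka fell by 1.43 ± 0.29 in Th1 against Th17 (0.372-fold, adjusted p = 0.00484, limma), while its difference of 0.93 in Th17-derived Th1 against Th1 was not called (adjusted p = 0.0744, limma). Rasgrp1 and Dgkz were not called in any comparison, and their 95% intervals in Th1 against Th17 ran from -0.15 to 0.51 and from -0.10 to 0.42.

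PKC-theta (Prkcq), BCL10 and MALT1 carry the signal to NF-kappaB. Bcl10 rose by 0.41 in Th1 against Th17 (adjusted p = 0.0436, limma), a call lost without Th17-derived Th1 replicate 1, Th1 replicate 1 or 3 or any Th17 library (0.0622 to 0.141). Prkcq, at 53.6 to 74.1 FPKM, and Malt1, at 21.7 to 43.5 FPKM, were not called. Their intervals in Th1 against Th17 were -0.41 to 0.10 and -0.51 to 0.42. Of the NFAT factors, which enter the nucleus when calcineurin removes their phosphates, Nfatc2 averaged 52.9 ± 5.01 FPKM in Th17-derived Th1, 56.4 ± 3.201 in Th1 and 39.03 ± 0.760 in Th17 (SD, n = 3 each). Both groups harvested in the Th1 condition lay above Th17 in every library. Nfatc2 rose by 0.43 in Th17-derived Th1 against Th17 (adjusted p = 0.0144, limma; 0.0559 to 0.0658 without Th17-derived Th1 replicate 1 or 2 or Th17 replicate 1 or 2) and by 0.52 in Th1 against Th17 (adjusted p = 0.00245). Nfatc1 rose by 0.39 in Th1 against Th17 (adjusted p = 0.0352, limma; 0.0538 to 0.126 without Th17-derived Th1 replicate 2, Th1 replicate 1 or 3 or Th17 replicate 1 or 2), and Nfatc3 differed there by -0.29, which was not called.

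Other genes of the pathway, from lists drawn up beside the 39, were compared with the same fit. Their calls are given as deposited and were not followed under other ways of processing. Of 29 further proximal genes, 8 rose and 5 fell in Th1 against Th17 (27.6% and 17.2%, beside 14.0% and 28.9% of all tested genes), and 3 rose and 1 fell in Th17-derived Th1 against Th17 (10.3% and 3.45%, beside 6.43% and 9.49%). The costimulatory receptor Cd28 averaged 114 ± 4.86 FPKM in Th17-derived Th1, 121 ± 35.4 in Th1 and 48.6 ± 5.86 in Th17 (SD, n = 3 each), and rose by 1.22 in Th17-derived Th1 against Th17 (adjusted p = 0.00457, limma) and by 1.26 in Th1 against Th17 (adjusted p = 0.00165, limma). Of 21 calcium genes, 7 rose and 6 fell in Th1 against Th17 (33.3% and 28.6%, beside 14.0% and 28.9%), so the share that fell was that of all genes. The calcineurin subunits went apart, with Ppp3ca up by 0.98 (adjusted p = 0.00167, limma) and Ppp3cb down by 0.64 on that scale (log2 difference -0.64, adjusted p = 0.00155). Of 18 RAS and MAP kinase genes, 7 fell in Th1 against Th17 (38.9%, beside 28.9% of all tested genes) and 4 in Th17-derived Th1 against Th17 (22.2%, beside 9.49%). Among those that fell in Th1 against Th17 were Rasa3 (-1.23) and Rasal3 (-0.73), which switch RAS off, and the diacylglycerol kinase Dgkd (-1.03).

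Of 19 NF-kappaB genes, 6 rose and 5 fell in Th1 against Th17 (31.6% and 26.3%, beside 14.0% and 28.9%), among them Nfkb2 (1.28), which encodes a precursor of the p52 subunit, and the kinase gene Ikbkb (-0.86). In the PI3 kinase list, Rictor, a subunit of an mTOR complex, fell by 0.77 there (adjusted p = 0.00254, limma). Of 17 tested further negative regulators (19 listed), 4 rose (23.5%, beside 5.67% of all tested genes) and 5 fell (29.4%, beside 4.81%) in Th17-derived Th1 against Th1, and 3 rose and 2 fell in Th17-derived Th1 against Th17 (17.6% and 11.8%, beside 6.43% and 9.49%). In Th1 against Th17, 5 rose and 2 fell (29.4% and 11.8%, beside 14.0% and 28.9%). The inhibitory receptor Lag3 averaged 23.3 ± 14.01 FPKM in Th17-derived Th1, 23.7 ± 14.1 in Th1 and 3.06 ± 1.95 in Th17 (SD, n = 3 each). It rose by 2.54 in Th17-derived Th1 against Th17 (adjusted p = 0.0194, limma) and by 2.46 in Th1 against Th17 (adjusted p = 0.00926, limma). Socs3, a cytokine signal inhibitor, was higher in Th17-derived Th1 than in Th1 by 1.74 (adjusted p = 0.000904, limma), and the inhibitory receptor Btla by 1.14 (adjusted p = 0.00746). The phosphatase genes Ptpn4 (-1.34, adjusted p = 0.00472, limma) and Ptprj (-0.90, adjusted p = 0.0123) and the ubiquitin ligase gene Nedd4 (-1.09, adjusted p = 0.0280) were lower in that comparison.

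Transcripts that receptor stimulation is known to induce were higher in Th1 than in Th17 for most of the list. Of 17 tested (18 listed), 11 rose in Th1 against Th17 (64.7%, beside 14.0% of all tested genes), with a median difference of 0.98, beside -0.17 for all tested genes. Among those that rose, Nr4a1, Nr4a2, Nr4a3, Egr2 and Egr3 were low, with Th17 means from 0.493 (Nr4a2) to 1.755 FPKM (Egr3). In Th17-derived Th1 against Th17, 6 rose and 2 fell (35.3% and 11.8%, beside 6.43% and 9.49%), with a median of 0.51. In Th17-derived Th1 against Th1, 1 rose and 5 fell (5.88% and 29.4%, beside 5.67% and 4.81%), with a median of -0.35. Il2ra, the high-affinity IL-2 receptor chain, averaged 424 ± 29.4 FPKM in Th17-derived Th1, 471 ± 82.8 in Th1 and 94.9 ± 22.7 in Th17 (SD, n = 3 each). It rose by 2.17 in Th17-derived Th1 against Th17 (adjusted p = 0.000154, limma) and by 2.31 in Th1 against Th17 (adjusted p = 4.25e-05, limma). Dusp5, a phosphatase of ERK, averaged 32.4 ± 8.93 FPKM in Th17-derived Th1, 69.5 ± 5.71 in Th1 and 15.9 ± 4.06 in Th17. It fell by 1.11 in Th17-derived Th1 against Th1 (adjusted p = 0.0121, limma) and rose by 2.08 in Th1 against Th17 (adjusted p = 0.000164, limma). Xcl1 had another order, with means of 8.26 ± 2.63 FPKM in Th17-derived Th1, 36.0 ± 15.1 in Th1 and 57.2 ± 0.707 in Th17. Its difference was -2.69 in Th17-derived Th1 against Th17 (adjusted p = 0.000741, limma) and -1.94 in Th17-derived Th1 against Th1 (adjusted p = 0.00579, limma). In Th1 against Th17 it was -0.745 and not called.

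**Figure D4:**
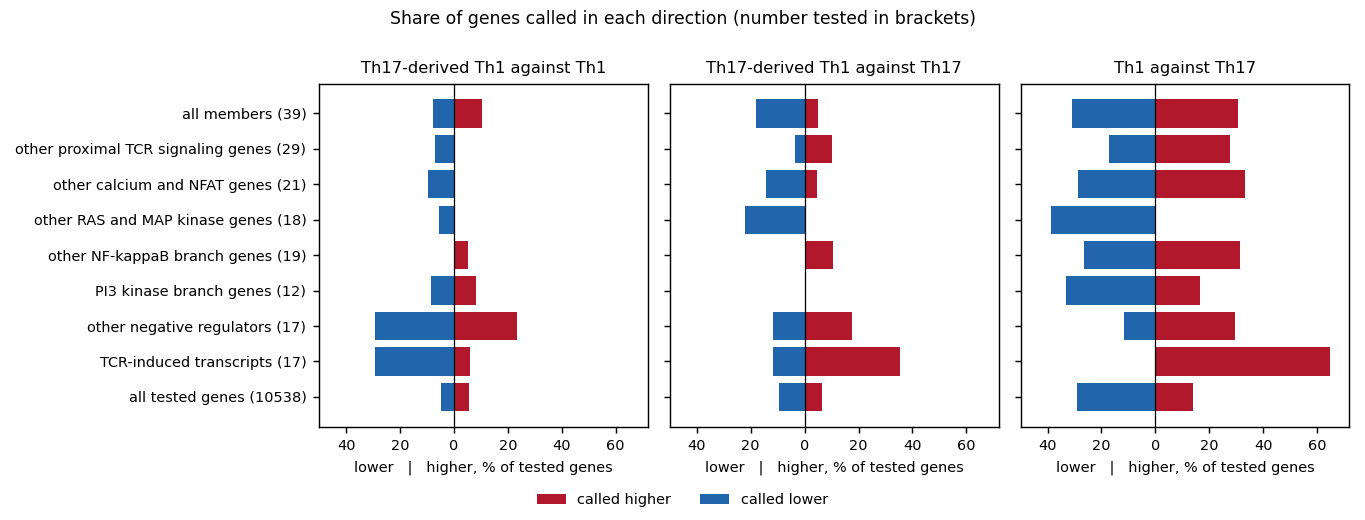
Share of tested genes called higher (red, right) and lower (blue, left) in the 39 genes, in 7 further lists and among all tested genes (x axes, percent), for the 3 comparisons. In Th1 against Th17 the TCR-induced list has 11 of 17 genes higher, and the RAS and MAP kinase list has 7 of 18 lower.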

How the data were processed

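Per the labels, RNA of 9 libraries was sequenced. The authors deposited FPKM values (fragments scaled by transcript length and library size) for 22017 symbols. The submitters' processing notes name mm10, HISAT2 and DESeq2, without roles. Annotation, counter and handling of shared reads: not given in the sources used here. FPKM holds no counts, and low values fell on no common step (a ratio common to at most 1.131% of low genes, within 0.01 log2 units), which leaves depth unknown and counting intervals out of reach. FPKM also depends on library composition, so scaling was varied.

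The 10538 genes that reached 1 FPKM in 3 or more libraries were tested as log2(FPKM + 1), which understates differences of low genes, with limma 3.58.1 in R 4.3.3 (mean-variance trend, all 9 libraries, group means contrasted, Benjamini-Hochberg adjustment, threshold 0.05). The fit was tried on simulated data in which each value varied independently. That trial does not cover shifts that many genes of a library share. Intervals cover 95%. Lists were described by counts and medians only. Per-library values were given for genes called with at least a 1.5-fold difference, and for Cd3e, Lck, Zap70 and Lat. Of the other lists, up to 3 called genes per direction, list and comparison with a mean of at least 5 FPKM could be named. The 39 genes and the lists were chosen with earlier results of these data known. The genes used to check the fate labels and the ratio pairs were chosen later. Promoters came from RefSeq, where 33 of the 39 genes matched by symbol (all but Nfatc1, Cd2, Cd6, Ptpn2, Pag1 and Malt1). Gene positions came from GENCODE (GRCm38). Python 3.11.15, pandas 2.3.3 and matplotlib 3.10.9 were used.

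The 21 alternatives were pseudocounts of 0.1 and 5, no filter, a mean of at least 5 FPKM, equal sums, median-ratio scaling, quantile normalization, fits of 2 groups, a replicate block, robust moderation, the omission of each library, and, added after the data were seen, all replicates 3 left out and a covariate for CD8 markers (Cd8a and Cd8b1 averaged after log2 transformation). A threshold of 0.01 was also applied.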

Additional observations from a re-analysis of the deposited data

How the results depend on the processing

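Counts are members called by limma, unless all tested genes are named. In Th17-derived Th1 against Th1, the 4 higher became 2 under median-ratio scaling, quantile normalization and the fit of 2 groups, and 0 at a threshold of 0.01 (9 at an unadjusted p below 0.05). The omission of 1 library gave 0 to 5. The 3 lower became 1 without a filter and in the fit of 2 groups, 0 at 0.01 (8 unadjusted), and 0 to 8 with 1 library left out. In Th17-derived Th1 against Th17, the 2 higher became 6 under median-ratio scaling, 1 under quantile normalization, 4 in the fit of 2 groups, 0 at 0.01 (7 unadjusted), and 0 to 4 with 1 library left out. The 7 lower became 4 at 0.01, and 4 to 8 with 1 left out. In Th1 against Th17, the 12 higher became 8 with equal sums and in the fit of 2 groups, 6 at 0.01, and 6 to 12 with 1 left out. The 12 lower ranged from 8 (median-ratio scaling) to 14 (equal sums), and from 9 to 12 with 1 left out. Counts over all tested genes moved as well. In Th17-derived Th1 against Th1, 597 were higher as deposited, 512 under median-ratio scaling and 400 in the fit of 2 groups. In Th17-derived Th1 against Th17, 678 were higher as deposited, 853 under median-ratio scaling and 750 under quantile normalization. In Th1 against Th17, 3048 were lower as deposited, 1759 under median-ratio scaling and 3644 with equal sums.

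Without replicate 3 of any group the counts higher and lower were 0 and 2 (7 higher at an unadjusted p below 0.05), 1 and 6, and 6 and 10 in the same order of comparisons, and with the CD8 covariate 5 and 3, 3 and 6, and 11 and 12. The replicate block gave 3 and 3, 2 and 7, and 10 and 11. Over all tested genes, the CD8 covariate gave 719 and 659, 776 and 1114, and 1522 and 3162. The block gave 634 and 621, 745 and 936, and 1482 and 2970 over all tested genes. Under the block Txk, Ubash3a and Cbl lost their calls in Th17-derived Th1 against Th1 (adjusted p = 0.0703, 0.0585 and 0.0624, limma), and Fyn, Zap70 and Csk in Th1 against Th17 (0.0505, 0.0525 and 0.0543), while Ptpn22 and Cd5 gained theirs in Th17-derived Th1 against Th1. Whether the numbers pair the libraries is not given by the labels, and not every same-numbered pair correlated above 0.1 (-0.178 to 0.659). In 5 of 9 cases a library matched its own number best. Among single values, 2361 kept their side of the threshold, of which 66 uncalled ones changed sign (none above 0.194 in size as reported). Another 180 lost and 32 gained a call, the threshold of 0.01 included, and 1 became called with the other sign, Lck in Th1 against Th17 under quantile normalization (-0.264). The causes were not tested. With 3 libraries a group and unknown depth, small differences are not resolved.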
